A study of Mus musculus with 4 samples.

Results

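The ion channel gene families of the mouse genome that carry the symbols Scn, Cacna, Cacnb, Cacng, Kcn and Hcn were followed in Atoh1-lineage cells of the embryonic cerebellum. The gene list of the files held 142 such symbols (sodium channels by a number and a or b, the Hcn genes, and all genes of the other families, without Kcnq1ot1), and 97 of them reached 50 unique molecular identifiers (UMIs, 1 per captured RNA molecule) summed over all 4 libraries. Just inside that minimum stood Cacng1 with 51 UMIs, and just outside Kcns2 with 49. The 97 members came out of 14680 genes with at least 50 UMIs and 32285 genes listed. They comprised 5 sodium channel alpha subunits, 3 sodium beta subunits, 9 calcium channel alpha1 subunits, 3 alpha2delta subunits, 4 calcium beta subunits and 7 gamma subunits. Potassium channels supplied 27 alpha subunits of the Kv type, 8 accessory subunits of such channels, 8 genes of the calcium- or sodium-activated channels, 7 inward rectifiers and 9 two-pore channels. All 4 Hcn genes and 3 other symbols, Kcnd3os, Kcnmb4os2 and Kcnrg, completed the set. The symbol rule is wider than its working name of voltage-gated channels: inward rectifiers, two-pore channels, most gamma subunits and the antisense transcripts form no voltage-gated pore.

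Cells were sorted for tdTomato (tdT) from cerebella at E14.5 and sequenced on the 10x Genomics platform. The 2 control libraries had the genotype Atoh1-Cre/+; R26LSL-tdT/+, and the 2 conditional knockout (En1/2 CKO) libraries carried En1lox/lox and En2lox/lox in addition, so both groups had the Cre driver and the reporter. Cre follows the Atoh1 gene, so the homeobox genes En1 and En2 are removed only in cells with an Atoh1 history, which include granule cell precursors and the excitatory neurons of the cerebellar nuclei. Animals were pooled before sorting, and each library is 1 replicate experiment, so no value belongs to a single embryo. Library values below are in the order control replicate 1, control replicate 2, CKO replicate 1, CKO replicate 2.

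A neuron fires when sodium channels open on depolarisation, and it repolarises when potassium channels follow. Each pore is built by an alpha subunit, and accessory subunits set its trafficking and gating. Calcium channels turn the voltage change into calcium entry, with alpha2delta and beta subunits carrying the pore to the membrane. Hcn channels open on hyperpolarisation and support rhythmic firing, which neurons of the cerebellar nuclei are known for, and two-pore and inward rectifier channels set the resting potential. Mature neurons carry larger sodium and potassium currents than dividing precursors.

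The libraries held 14998150 to 33709450 UMIs, and 2007 to 3931 cells per library passed the filters. A cell entered the Pax6 > Meis2 class or the Meis2 > Pax6 class by which of these genes had more UMIs in it, and 278 to 895 cells per library were placed by a difference of 1 UMI. The Pax6 > Meis2 class held 1801, 961, 1208 and 2978 cells, and the Meis2 > Pax6 class 603, 2322, 573 and 372. Median UMIs per Pax6 > Meis2 cell were 3238, 2339, 13722.5 and 9818.5, so the CKO cells of that class were read more deeply. In the Meis2 > Pax6 class the medians were 2617, 2171.5, 3110 and 2248. Markers of excitatory nuclei neurons without Meis2 summed to 1446 to 1865 raw CPM (the share of the class's UMIs on the usual CPM scale, with no further scaling) in the Meis2 > Pax6 cells and to 590 to 959 in the Pax6 > Meis2 cells, with 7 of 7 genes detected. Lhx9 and Slc17a6 of that list ranged from 320 to 597 and from 225 to 343 raw CPM in the former, against 16.9 to 100.9 and 27.2 to 93.0 in the latter. Markers of the granule lineage without Pax6 did not separate the classes as a sum (2523 to 2776 raw CPM in Pax6 > Meis2 cells and 1910 to 3075 in Meis2 > Pax6 cells, 8 of 8 genes), and the classes are therefore named by their rule. Of that list, Atoh1 and Barhl1 were higher in Pax6 > Meis2 cells within every library, and its other genes were not read singly. The list of 9 GABAergic markers summed to 152, 124, 59.7 and 122 raw CPM in Meis2 > Pax6 cells and to 63.2, 96.8, 30.2 and 40.1 in Pax6 > Meis2 cells (7 to 9 genes detected), higher in the former in every library. Its defining genes Gad1 and Gad2 stayed at or under 3.14 and 9.16 raw CPM in every library and class. Erythroid genes summed to 53.4, 3516, 20.6 and 4.495 raw CPM in Meis2 > Pax6 cells and to 27.4, 1296, 910 and 2.84 in Pax6 > Meis2 cells, and without cells over 1% haemoglobin UMIs or with at least 2 UMIs of Gad1, Gad2, Slc32a1, Pax2, Ptf1a and Skor2 the counts of called members between classes were 43 higher and 16 lower (25.3% and 27.1% of all genes). Any pair of libraries shared 1 to 6 cell barcodes.

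The channel genes as a whole were more abundant in Meis2 > Pax6 cells. All 142 symbols together made up 1908, 2423, 1451 and 1523 raw CPM in the Pax6 > Meis2 cells and 3383, 3013, 2169 and 2767 in the Meis2 > Pax6 cells. The latter class was higher within every library, and in both classes both CKO libraries stood below both controls. Of the 97 members, 83 had enough UMIs to be tested between the classes within libraries (edgeR quasi-likelihood test with the library as block, Benjamini-Hochberg adjustment over 12387 genes). At an adjusted p under 0.05, which is what called means throughout, 43 members rose and 15 fell in the Meis2 > Pax6 cells, beside 25.3% and 27.0% of all genes tested (52.3% in either direction). These shares of all genes also stand beside the counts by role below. A member could be tested on the sums of 1 class alone. Kcna4 and Cacng3, among others, entered only through the Meis2 > Pax6 sums, so the filter left them no way to be called lower there. Cacna1h, Scn1a and Kcnmb2 also needed those sums to enter, which left them little way to be called lower. In turn Cacna1s, Kcnh5 and Kcnj11 needed the Pax6 > Meis2 sums, which left them little way to be called higher. The median log2 fold change was 0.71 over the 83 members and −0.01 over all genes. Fold changes compare the Meis2 > Pax6 with the Pax6 > Meis2 cells, and levels are CPM after TMM scaling, which evens out library composition. In bulk sums such as these, fewer cells with a transcript and less transcript per cell cannot be told apart.

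Promoter sequence is shown for 2 called members in each direction, to set the sequence context beside the class differences. They have the lowest p among the called members whose upstream window of 250 bases in RefSeq had at least 200 bases outside the gene's GENCODE M21 span. Members with a lower p but fewer bases outside that span, such as Kcnmb2, Kcna2, Kcnma1, Cacna2d2, Cacng3 and Kcne1l, are not shown. Neither are Scn3a and Cacna1h, which had a lower p than Scn2a but no window. The lines give the bases just upstream of the gene on its own strand, 5′ to 3′, from RefSeq on GRCm38.p6. Capitals mark matches on either strand to CANNTG (an E-box, the motif class bound by proneural factors such as Atoh1) and to TGACAG (the core bound by Meis factors).
Cacna2d1: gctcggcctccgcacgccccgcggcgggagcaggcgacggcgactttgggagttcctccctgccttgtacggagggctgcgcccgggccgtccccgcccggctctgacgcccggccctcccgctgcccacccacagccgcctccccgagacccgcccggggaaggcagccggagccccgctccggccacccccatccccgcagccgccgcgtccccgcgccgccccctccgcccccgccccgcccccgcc
Scn2a: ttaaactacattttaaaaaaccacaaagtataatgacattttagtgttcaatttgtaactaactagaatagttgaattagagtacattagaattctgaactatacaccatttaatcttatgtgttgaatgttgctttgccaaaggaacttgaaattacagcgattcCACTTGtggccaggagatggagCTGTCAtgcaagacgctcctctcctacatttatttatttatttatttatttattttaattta
Kcnk1: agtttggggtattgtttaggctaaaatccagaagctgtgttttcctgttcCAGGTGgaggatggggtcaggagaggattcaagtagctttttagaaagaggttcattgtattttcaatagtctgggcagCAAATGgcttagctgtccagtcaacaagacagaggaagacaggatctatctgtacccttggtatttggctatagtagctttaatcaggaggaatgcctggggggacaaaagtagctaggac
Kcnj6: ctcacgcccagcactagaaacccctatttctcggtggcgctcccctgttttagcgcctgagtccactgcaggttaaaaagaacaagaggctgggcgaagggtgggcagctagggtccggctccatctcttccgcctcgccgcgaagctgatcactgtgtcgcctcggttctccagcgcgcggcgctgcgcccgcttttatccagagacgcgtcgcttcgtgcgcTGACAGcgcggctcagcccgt
These windows lie at chr5:15934441-15934690 (plus strand) for Cacna2d1, chr2:65620519-65620768 (plus) for Scn2a, chr8:125994852-125995101 (plus) for Kcnk1 and chr16:94997702-94997946 (minus) for Kcnj6. Cacna2d1 and Scn2a are higher in Meis2 > Pax6 cells and differ widely in base composition, with 82.4% and 29.6% G or C. The Cacna2d1 window held 36 CpG dinucleotides and none of the motifs searched. The Kcnk1 window, of a gene lower in Meis2 > Pax6 cells, held no CpG and 2 E-boxes, and that of Kcnj6 held 26 CpG and 1 TGACAG. Windows of 250 bases were found for 70 of the 97 members. Where a member had several, the one nearest its GENCODE start was taken. For all genes the first listed window was taken, so the shares below come from windows picked by different rules. CANNTG was in 62.9% of them against 66.0% of all genes' windows, TGACAG in 15.7% against 15.97%, and TAATTA (a homeodomain core) in 0 of 70 against 4.9% of all. Among members that rose in Meis2 > Pax6 cells, 7 of 31 windows held TGACAG, and among those that fell, 2 of 11. TGACAG and CANNTG can overlap in part, and a match is a description of the letters only.

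**Figure D1:**
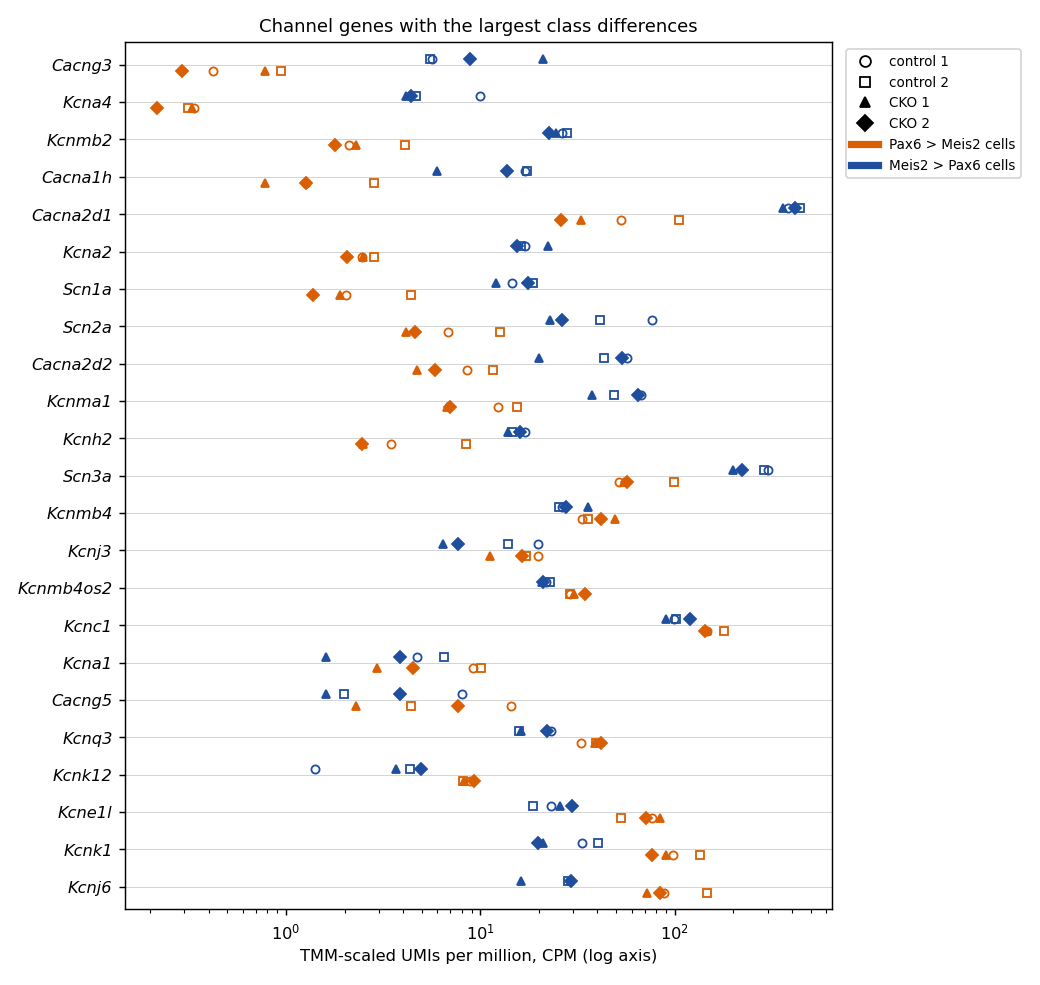
Level of 23 channel genes in each library, in CPM on a log axis, for Pax6 > Meis2 cells (orange) and Meis2 > Pax6 cells (blue), with 1 symbol per library. The genes are named by size of change (at least 5 CPM in the higher class). The upper 12 were called higher in Meis2 > Pax6 cells and the lower 11 were called lower. Libraries of the classes overlap in some genes, such as Kcnj3 and Cacng5.

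Sodium channel alpha subunits, the pores of the action potential's rising phase, had 3 of 5 members called higher and none lower. Scn2a (ENSMUSG00000075318; GRCm38 chromosome 2, 65620771 to 65767447), the main sodium channel of early axons, stood at 6.85, 12.5, 4.12 and 4.62 CPM in Pax6 > Meis2 cells. In Meis2 > Pax6 cells it stood at 76.3, 41.2, 22.8 and 26.4 CPM, above every value of the other class. The rise was 2.62 on the log2 scale (SE 0.22, adjusted p = 1.49e-06, higher in 4 of 4 libraries). Scn3a (ENSMUSG00000057182; chromosome 2, 65457118 to 65567627), the channel typical of embryonic neurons, read 51.8, 98.8, 54.7 and 56.6 CPM against 301, 289, 198 and 222 CPM. It rose by 1.98 on the log2 scale (SE 0.13, adjusted p = 2.70e-07), and the classes did not overlap. Scn1a, a channel of later neurons, rose from 2.42 ± 1.34 to 15.7 ± 3.01 CPM (SD, n = 4 each; log2 2.85, SE 0.26, adjusted p = 2.26e-06). Scn8a, the channel of the mature axon initial segment, was 68.9 ± 19.2 CPM against 64.4 ± 7.71 CPM (SD, n = 4), with overlapping libraries and no call (log2 −0.07, SE 0.11, adjusted p = 0.603). Among the beta subunits, which tune sodium channel gating, Scn3b rose 2.19-fold (SE 0.13 on the log2 scale, adjusted p = 1.62e-05) and Scn2b 2.48-fold (adjusted p = 0.0129).

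Calcium channel genes rose together in Meis2 > Pax6 cells. All 3 alpha2delta subunits, 7 of 9 alpha1 subunits and 3 of 4 beta subunits were called higher, and Cacna1s was the only one of these 16 called lower. Only the Pax6 > Meis2 sums carried Cacna1s into the test. Cacna2d1 (ENSMUSG00000040118; chromosome 5, 15934691 to 16374511), an auxiliary subunit that brings calcium channels to the membrane, read 52.7, 105, 33.1 and 26.1 CPM in Pax6 > Meis2 cells. It read 382, 440, 361 and 414 CPM in Meis2 > Pax6 cells, an 8.58-fold rise (log2 3.10, SE 0.23, adjusted p = 6.07e-07) with no overlap. Cacna2d2 rose from 7.68 ± 3.07 to 43.4 ± 16.6 CPM (SD, n = 4; adjusted p = 5.52e-07). The T-type pore gene Cacna1h, whose channels open near the resting potential, had the largest alpha1 change, from 1.54 ± 0.89 to 13.5 ± 5.29 CPM (SD, n = 4; log2 3.23, SE 0.26, adjusted p = 8.62e-07). It needed the Meis2 > Pax6 sums to enter the test. The presynaptic pores Cacna1a (P/Q type) and Cacna1b (N type) rose 1.98-fold and 2.02-fold, and Cacna1c (L type) and Cacna1e (R type) 2.82-fold and 3.32-fold. The largest of the adjusted p-values of these pores was 6.73e-05. Cacnb4 rose 3.39-fold (adjusted p = 1.25e-05), beside Cacnb1 and Cacnb3. Of the gamma subunits, most of which escort AMPA receptors and not calcium channels, Cacng3 and Cacng8 rose and Cacng5 fell. Cacng3 had 28 UMIs in all Pax6 > Meis2 cells and 152 in all Meis2 > Pax6 cells, or 0.423, 0.941, 0.784 and 0.291 CPM against 5.65, 5.48, 20.96 and 8.80 CPM. Only the Meis2 > Pax6 sums carried it into the test. Cacng2 (stargazin, the AMPA receptor partner of granule cells) was not called, at 89.3 ± 23.9 against 79.7 ± 15.2 CPM (SD, n = 4; adjusted p = 0.221).

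Kv alpha subunits split: 12 of the 21 tested rose in Meis2 > Pax6 cells and 4 fell. Kcna2 (ENSMUSG00000040724; chromosome 3, 107101146 to 107115005), a low-threshold axonal potassium channel, read 2.45, 2.82, 2.48 and 2.07 CPM against 17.0, 16.1, 22.3 and 15.4 CPM. This was a 7.45-fold rise (log2 2.90, SE 0.20, adjusted p = 3.09e-07), and the spread within each class was small beside it. Kcna4, an A-type channel that inactivates fast, had 16 UMIs in Pax6 > Meis2 cells and 75 in Meis2 > Pax6 cells (0.299 ± 0.055 against 5.77 ± 2.75 CPM, SD, n = 4; adjusted p = 2.33e-06). It entered the test through the Meis2 > Pax6 sums alone. Kcnh2, an ERG channel, rose 4.23-fold (adjusted p = 6.56e-05). Kcnq3, a subunit of the M current that restrains repetitive firing, fell 2.05-fold (adjusted p = 5.63e-05). Kcnc1, a fast delayed rectifier, fell 1.51-fold, from 154 ± 17.2 to 103 ± 12.2 CPM (SD, n = 4; adjusted p = 0.000344), with no overlap. Kcnh5 and Kcna1 were the other 2 that fell. Kcnd2, an A-type pore of granule cells, was not called (adjusted p = 0.191).

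Of the 8 genes of calcium- or sodium-activated potassium channels, 6 were called higher and Kcnmb4 lower. Kcnma1, the pore of the BK channel, read 12.3, 15.4, 6.73 and 6.94 CPM against 67.4, 48.8, 37.3 and 64.3 CPM (log2 2.51, SE 0.19, adjusted p = 4.89e-07). Its beta subunit gene Kcnmb2 rose 10.7-fold, from 2.57 ± 1.03 to 25.3 ± 2.33 CPM (SD, n = 4; adjusted p = 1.04e-07). The other BK beta subunit gene, Kcnmb4, went the opposite way, at 40.0 ± 7.05 against 28.8 ± 4.83 CPM (SD, n = 4; adjusted p = 0.00162). The antisense symbol Kcnmb4os2 fell alongside it (1.42-fold, adjusted p = 0.00256). Reads of antisense members cannot be told apart from those of overlapping genes, since the use of strand in counting is not given in the sources used here.

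Hcn, inward rectifier and two-pore genes, which act near the resting potential, were called in both directions: 4 of the 17 tested rose and 6 fell. All genes tested were called higher in 25.3% of cases and lower in 27.0%, so these counts set the 3 groups little apart. Hcn4 and Hcn3, pacemaker channel genes, rose 2.62-fold and 1.62-fold (adjusted p = 5.64e-06 and 0.00363), and Hcn2 was not called (adjusted p = 0.0847). Kcnj6 (ENSMUSG00000043301; chromosome 16, 94748636 to 94997701), a G-protein-gated inward rectifier of granule cells, read 88.4, 146, 71.6 and 83.5 CPM against 28.7, 28.2, 16.1 and 29.1 CPM. That was a 3.92-fold fall (log2 −1.97, SE 0.14, adjusted p = 3.15e-07). Its partner subunit gene Kcnj3 fell 1.40-fold (adjusted p = 0.0417), Kcnj11 fell too, and Kcnj12 was the only inward rectifier called higher. Kcnk1 (ENSMUSG00000033998; chromosome 8, 125995170 to 126030685), a two-pore leak channel, read 98.1, 134, 89.8 and 76.7 CPM against 33.4, 40.0, 20.96 and 19.8 CPM. It fell 3.56-fold (log2 −1.83, SE 0.11, adjusted p = 1.12e-07), with Kcnk12 falling and Kcnk10 rising beside it. The accessory gene Kcne1l on the X chromosome fell 2.95-fold (adjusted p = 2.76e-07), and Kcnip1 was the accessory gene called higher. Members outside the size rule for naming (Scn2b, Cacna1s, Cacnb1, Cacnb3, Cacng8, Kcnh5, Hcn3, Hcn4, Kcnj11, Kcnj12, Kcnk10 and Kcnip1) are named after their values were seen, to complete groups with few calls.

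Cycling cells were unevenly spread over the classes: the 6 cycling genes together made up 1498 to 2218 raw CPM in Pax6 > Meis2 cells and 244 to 773 in Meis2 > Pax6 cells, with 6 of 6 genes detected in each. Against the non-cycling Pax6 > Meis2 cells alone, a comparison added after seeing the data, 35 members were called higher and 18 lower in Meis2 > Pax6 cells, beside 17.3% and 19.0% of the 12163 genes tested. The median log2 fold change of the 80 members tested was 0.31, against −0.02 over all genes. Genes named by size, listed genes and called partner genes (given below) were followed one by one. Of these, 10 lost their call, 3 gained one, 1 changed sign and 43 stayed as they were. Kcnmb4 and Kcnmb4os2 were among those then not called (log2 −0.27 and −0.23), Kcna1 stood at −1.49, and Scn8a, Cacng2 and Kcnd2 were then called lower (−0.32, −0.47 and −0.93). Cacna2d1, Cacna2d2, Cacna1h, Scn2a, Scn3b and Cacna1b were called at 2.47, 1.82, 2.58, 1.98, 0.54 and 0.35. Kcna1 (log2 −0.68 over all 4 libraries) lost its call without control replicate 1 (−0.59), control replicate 2 (−0.71) or CKO replicate 1 (−0.62). Kcnj3 lost it without CKO replicate 1 (−0.37) or CKO replicate 2 (−0.36), and Cacng5 without control replicate 1 (−0.89).

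**Figure D2:**
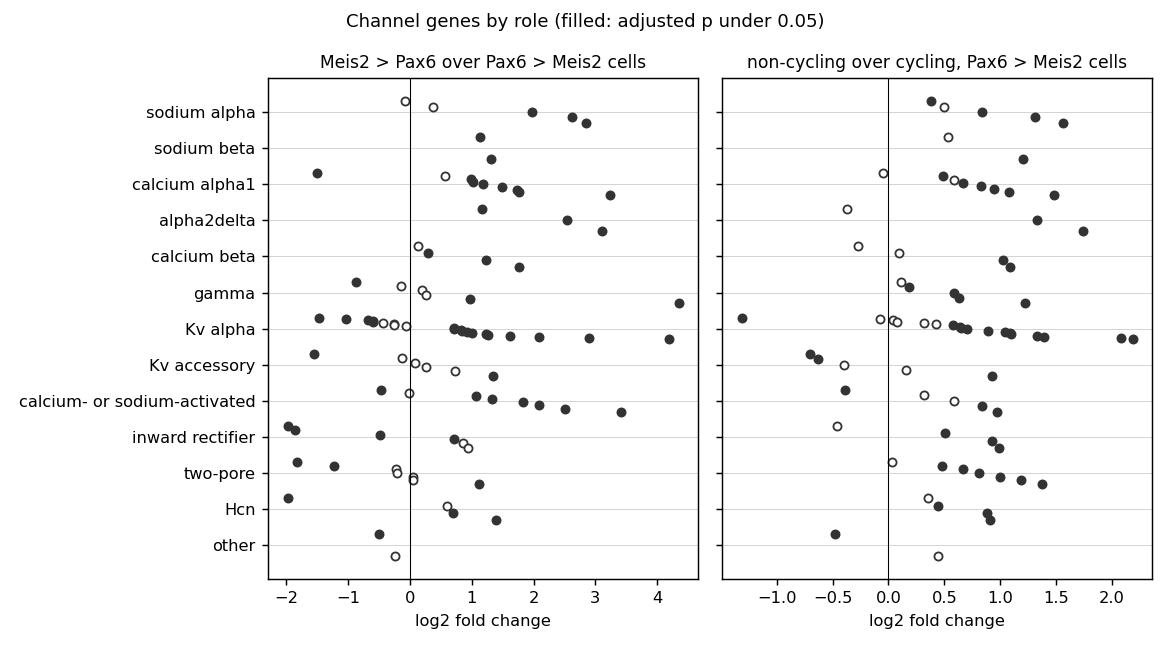
Log2 fold change of every member tested, by role, for Meis2 > Pax6 over Pax6 > Meis2 cells (left, 83 genes) and for non-cycling over cycling Pax6 > Meis2 cells (right, 72 genes). Each point is a gene and filled points have an adjusted p under 0.05; all alpha2delta points lie above 0 on the left, and the points to the left of 0 there include Kcnj6 and Kcnk1.

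Within the Pax6 > Meis2 class, channel genes were higher in cells outside the cell cycle. Cells with at least 2 UMIs of 6 cycling genes made up 35.9%, 32.2%, 53.6% and 42.5% of the class. This minimum was a raw count, not corrected for depth, so cells read more deeply reach it more easily. Of 72 members tested, 46 rose and 5 fell in the non-cycling cells, beside 26.2% and 26.3% of the 12346 genes tested (52.6% in either direction), and the median log2 fold change was 0.64 against 0.01 over all genes. Non-cycling cells were shallower, at medians of 2109.5 to 4415 UMIs against 2819 to 17463 in cycling cells. These values use the same Pax6 > Meis2 cells as the comparison of the classes. A member could again be tested on the sums of 1 group alone.

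Among sodium channels, Scn9a, Scn2a, Scn3a and Scn8a rose and Scn1a did not pass the test. Scn9a read 13.6, 26.9, 18.005 and 11.4 CPM in cycling cells and 45.4, 74.0, 45.5 and 36.3 CPM in non-cycling cells (log2 1.56, SE 0.09, adjusted p = 5.34e-12). The lowest non-cycling library was above the highest cycling one. Scn2a rose 2.49-fold (adjusted p = 1.20e-05), Scn3a 1.79-fold (adjusted p = 3.90e-10), Scn8a 1.30-fold (adjusted p = 3.95e-05) and Scn3b 2.30-fold (adjusted p = 1.08e-08), each in 4 of 4 libraries. Of the calcium pores tested, 6 of 8 rose, with Cacna1b from 21.7 ± 8.74 to 55.5 ± 13.6 CPM (SD, n = 4; log2 1.48, SE 0.10, adjusted p = 2.73e-11). Cacna1a, Cacna1c and Cacna1e rose 1.59-fold, 1.77-fold and 1.92-fold. Cacna2d2 rose 3.35-fold and Cacna2d1 2.52-fold (adjusted p = 4.47e-08 and 2.08e-10), but Cacna2d3 did not pass (log2 −0.37, SE 0.19, adjusted p = 0.116). Cacnb4 rose 2.04-fold beside Cacnb1, and Cacng2, Cacng4, Cacng5 and Cacng8 rose, with Cacng2 at 74.1 ± 24.5 against 106 ± 22.9 CPM (SD, n = 4; adjusted p = 2.71e-06).

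The highest log2 fold changes of the members tested were those of Kcna1 and Kcna6, Kv genes on the same stretch of chromosome 6. Kcna1 (ENSMUSG00000047976; chromosome 6, 126640397 to 126646384) read 2.73, 3.74, 1.39 and 1.97 CPM in cycling cells and 16.5, 14.2, 6.38 and 7.66 CPM in non-cycling cells. It rose by 2.19 on the log2 scale (SE 0.20, adjusted p = 1.08e-08). Kcna6 (ENSMUSG00000038077; chromosome 6, 126708329 to 126740674) read 2.58, 3.74, 0.650 and 1.67 CPM against 10.1, 8.39, 6.38 and 5.99 CPM (log2 2.08, SE 0.25, adjusted p = 6.00e-07). In both genes every non-cycling library lay above every cycling one. Both needed the non-cycling sums to enter the test, so the filter left them little way to be called lower in non-cycling cells. Kcnd2 rose 2.62-fold (adjusted p = 1.73e-09) and Kcnc1 1.49-fold (adjusted p = 4.07e-06). Kcnq3 (adjusted p = 0.689) and Kcna2 (adjusted p = 0.183) were not called. Two-pore genes rose in 6 of 7 cases, among them Kcnk9, a leak channel of granule cells, from 34.9 ± 14.4 to 95.1 ± 36.6 CPM (SD, n = 4; adjusted p = 1.79e-11), and Kcnk1, 1.59-fold (adjusted p = 3.07e-09). Kcnj3 rose 1.98-fold (adjusted p = 1.72e-07), beside Kcnj6 and Kcnj12, and Hcn3 and Hcn4 rose 1.88-fold and 1.84-fold (adjusted p = 1.69e-05 and 3.95e-05). Kcnma1 rose 1.78-fold (adjusted p = 7.84e-05) beside Kcnn1, and Kcnip3 was the accessory gene that rose.

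The 5 members higher in cycling cells were Kcnq5, Kcne1l, Kcnab2, Kcnmb4os2 and Kcnmb4. Kcne1l read 92.6, 65.0, 93.3 and 82.3 CPM in cycling cells and 52.7, 42.5, 57.7 and 52.3 CPM in the others (log2 −0.70, SE 0.06, adjusted p = 4.13e-09). Kcnab2, a beta subunit of Kv channels, fell 1.55-fold (adjusted p = 0.00913), and lost the call without CKO replicate 2 (log2 −0.51). Kcnmb4 and Kcnmb4os2 fell 1.31-fold and 1.40-fold (adjusted p = 0.000445 and 8.93e-05). Kcnq5, named after its values were seen, averaged 2.84 CPM in cycling and 1.00 CPM in non-cycling cells (SD 0.68 and 0.62, n = 4; adjusted p = 0.00116). It needed the cycling sums to enter the test. With cells thinned to an equal depth of 2000 UMIs, 36 of 46 members tested rose and 1 fell, beside 17.5% and 18.3% of all genes. Kcnmb4 and Kcnmb4os2 were then not called (log2 −0.16 and −0.46) and Cacna2d2 stood at 2.33. Here and below, the class and cycling state of thinned cells were still set from their full counts, so thinning left that assignment unchanged.

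**Figure D3:**
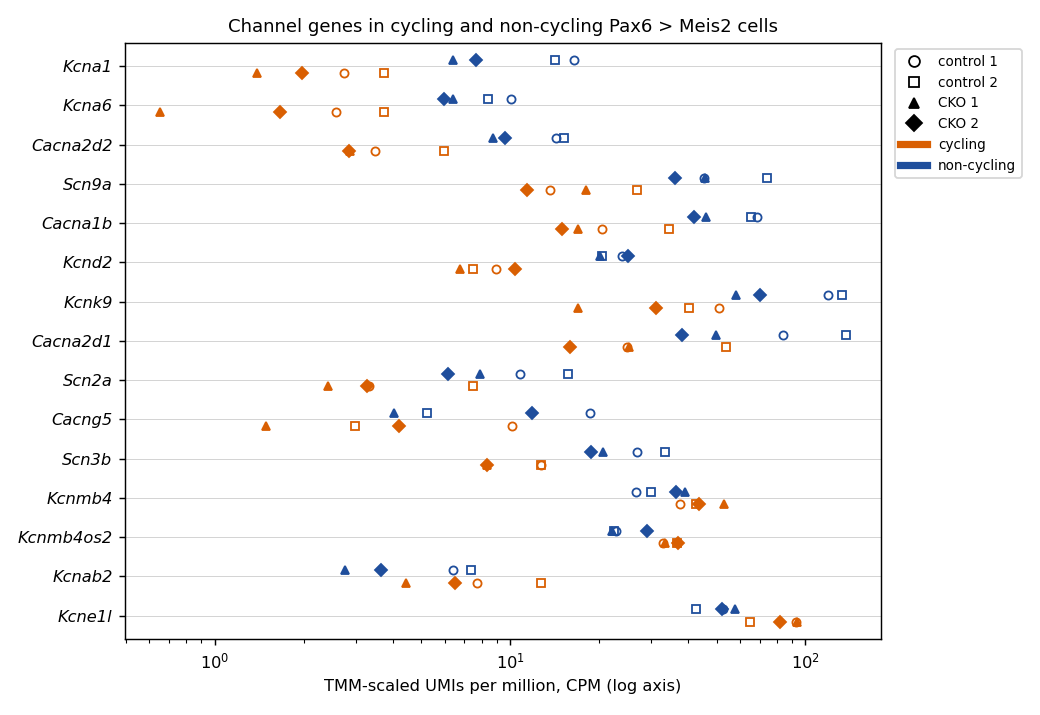
Level of 15 channel genes in cycling (orange) and non-cycling (blue) Pax6 > Meis2 cells, in CPM on a log axis, with 1 symbol per library. The upper 11 genes are called genes with the largest rise in non-cycling cells and the lower 4 those that fell, each with at least 5 CPM in the higher group.

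Proteins that anchor or tune these channels were read from a list of 43 partner genes, of which 40 were in the files. In Meis2 > Pax6 cells 20 of 32 tested rose and 4 fell, beside 25.3% and 27.0% of all genes tested. Ank2 and Ank3, the ankyrins that hold sodium and potassium channels in the axon membrane, rose by 1.30 and 1.03 on the log2 scale (SE 0.13 and 0.12, adjusted p = 3.95e-06 and 1.54e-05). Sptbn4, the spectrin of the axon initial segment, rose by 2.06, Cntnap2, which clusters Kv channels, by 1.84, and Dpp10, an auxiliary subunit of A-type channels, by 2.97 (adjusted p = 0.000287, 0.000171 and 4.50e-05). The 4 that fell were Lrrc55, Cntnap1, Fgf12 and Calm2, and Calm2 (log2 −0.29) lost its call without control replicate 1 (−0.24), CKO replicate 1 (−0.32) or CKO replicate 2 (−0.33). Between non-cycling and cycling Pax6 > Meis2 cells, 21 of 29 rose, beside 26.2% of all genes tested, and Calm2 fell, beside 26.3% (log2 −0.25, adjusted p = 0.000984). Ank2, Ank3 and Dpp6, another A-type auxiliary subunit, had log2 fold changes of 1.71, 1.31 and 1.27 there (adjusted p = 2.72e-15, 1.61e-13 and 2.83e-13). Against the non-cycling Pax6 > Meis2 cells alone, Ank2 and Ank3 stood at 0.55 and 0.40 in Meis2 > Pax6 cells, both still called.

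Loss of En1 and En2 was compared within each class, over 2 control and 2 CKO libraries. In Meis2 > Pax6 cells none of the 76 members tested was called by edgeR, beside 0.212% of the 11804 genes tested, and DESeq2 called 1, Scn2a, beside 2.97% of the genes to which it gave an adjusted p. An unadjusted edgeR p under 0.05 was reached by 22 members, 2 higher and 20 lower in CKO, beside 14.7% of all genes (7.85% higher and 6.82% lower). The lowest adjusted p of a member was 0.0960. The log2 fold change, CKO over control, was below 0 for 62 of 76 members, with a median of −0.39 against −0.01 over all genes. Both CKO libraries lay below both controls for 35 members (46.1% of them, against 21.8% of all genes tested) and above both for 6 (7.89%, against 22.8%). Of 21 genes listed for naming, 19 had a value below 0.

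Cacna2d3 (ENSMUSG00000021991; chromosome 14, 28904943 to 29721864), the third alpha2delta gene, read 26.9, 22.8, 7.60 and 10.4 CPM in these cells. Both CKO libraries were lower, at a log2 difference of −1.50 (SE 0.31, adjusted p = 0.0960). Scn2a read 76.3, 41.2, 22.8 and 26.4 CPM (log2 −1.25, SE 0.30, adjusted p = 0.133), again with both CKO libraries below the controls but with controls that differed widely from each other. Scn3a, Scn3b, Kcnj3 and Kcnk1 were among the 10 listed genes whose groups did not overlap, all with CKO below control. Scn3a stood at 295 ± 8.78 CPM in control and 210 ± 16.8 CPM in CKO (SD, n = 2; log2 −0.50, adjusted p = 0.311), Scn3b at 47.5 ± 5.41 and 29.0 ± 7.17 CPM (log2 −0.75, adjusted p = 0.212). Kcnj3 stood at 16.8 ± 4.24 and 7.07 ± 0.88 CPM (SD, n = 2; log2 −1.24, adjusted p = 0.166), and Kcnk1 at 36.7 ± 4.66 and 20.4 ± 0.83 CPM (log2 −0.87, adjusted p = 0.159). By contrast, Cacna2d1, which differed so widely between the classes, read 382, 440, 361 and 414 CPM, and its groups overlapped (log2 −0.10, SE 0.22, adjusted p = 0.879). Kcnc1 (log2 0.04, adjusted p = 0.955) and Kcna2 (log2 0.22, adjusted p = 0.780) were the listed genes with values above 0.

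Other measures moved with genotype in these cells. The cycling list summed to 369 and 244 raw CPM in the controls and to 773 and 511 in CKO (6 of 6 genes detected), and the granule lineage list to 2177 and 2036 against 2970 and 3280 (9 of 9 genes). Atoh1 and Barhl1 of the latter read 94.6 and 41.5 against 194 and 119 and 232 and 134 against 340 and 361 raw CPM. The unipolar brush list was lower in CKO, at 92.1 and 138 against 61.8 and 45.5 (6 of 6 genes), and so were the GABAergic and erythroid lists given above. Genes of the dissociation response read 186 and 179 against 298 and 187 raw CPM (7 to 8 of 8 genes). The part of these lists in the result was not tested. Thinned to 2000 UMIs per cell, the members had a median of −0.10 over 53 tested, and without CKO replicate 1 the median was −0.16 over 70. Leaving out CKO replicate 2 gave 13 calls among members (2 higher and 11 lower, beside 5.86% of all genes). Leaving out control replicate 2 gave 3 and control replicate 1 gave 1, all of these lower (beside 0.821% and 2.02%), and CKO replicate 1 gave 0 (beside 0.384%). Scn2a was called without control replicate 2 (log2 −1.66) or CKO replicate 2 (−1.31), and Cacna2d3 without control replicate 1 (−1.37), control replicate 2 (−1.63) or CKO replicate 2 (−1.68).

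**Figure D4:**
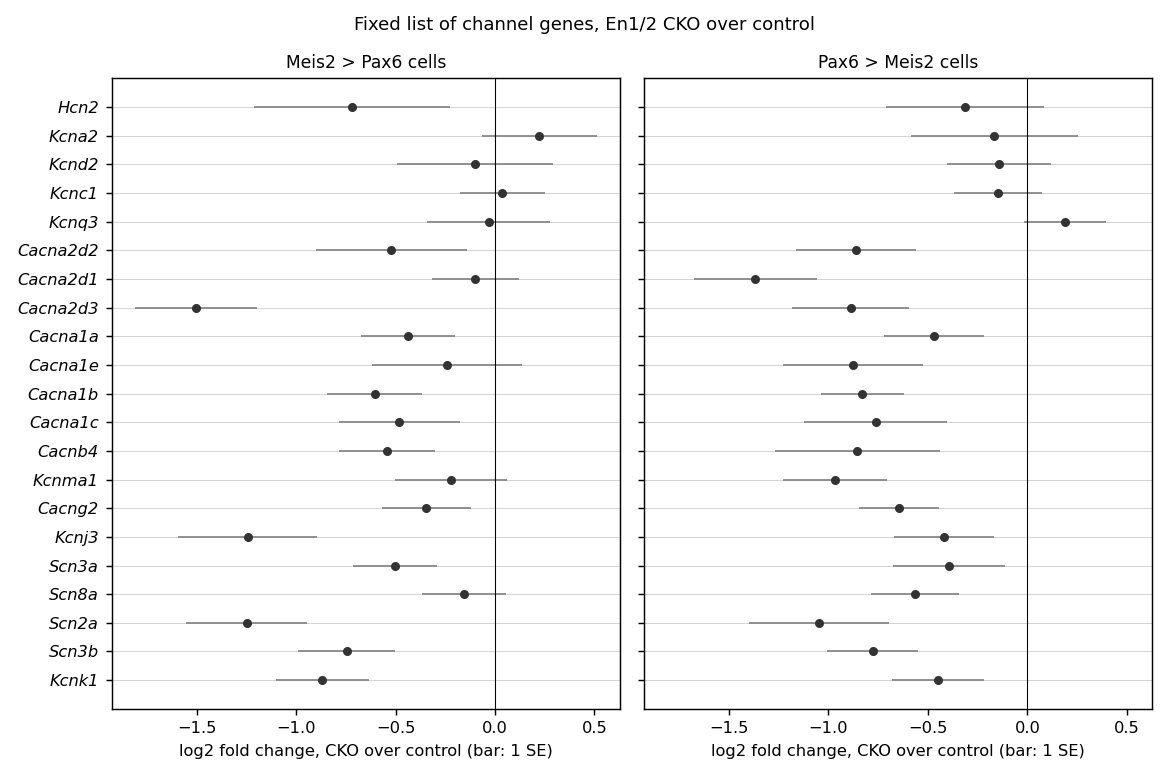
Log2 fold change, CKO over control, of the 21 listed channel genes in Meis2 > Pax6 cells (left) and Pax6 > Meis2 cells (right), with bars of 1 SE. Most points lie left of 0 in both panels, and none has an adjusted p under 0.05.

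In Pax6 > Meis2 cells none of 89 members was called by edgeR, beside 0.0574% of the 13931 genes tested, and DESeq2 called 2, Cacna2d1 and Kcnk9, beside 0.613% of the genes to which it gave an adjusted p. An unadjusted edgeR p under 0.05 was reached by 25 members, all lower in CKO, beside 9.82% of all genes (3.31% higher and 6.51% lower). The lowest adjusted p of a member was 0.179, which Kcnk9 had (named after its values were seen). The value was below 0 for 76 of 89 members, with a median of −0.47 against −0.01 over all genes. Both CKO libraries lay below both controls for 46 members (51.7%, against 25.1% of all genes tested) and above both for 2 (2.25%, against 21.4%). Of the 21 listed genes, 20 had a value below 0. The comparison in Meis2 > Pax6 cells comes from the same 4 libraries, so the counts in both classes are not independent.

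Cacna2d1 read 52.7, 105, 33.1 and 26.1 CPM here (log2 −1.37, SE 0.31, adjusted p = 0.199). Both CKO libraries were below both controls, and the controls differed from each other more than the CKO libraries did. Cacna1b read 43.2, 53.6, 26.1 and 27.1 CPM (log2 −0.83, SE 0.21, adjusted p = 0.242). Kcnma1 read 12.3, 15.4, 6.73 and 6.94 CPM (log2 −0.97, SE 0.26, adjusted p = 0.288). In both genes the groups did not overlap and the replicates lay close together. Cacng2 stood at 110 ± 2.94 CPM in control and 68.9 ± 6.90 CPM in CKO (SD, n = 2; log2 −0.65, adjusted p = 0.379), and Scn3b at 22.5 ± 4.16 and 12.7 ± 0.63 CPM (log2 −0.78, adjusted p = 0.327). Scn2a (log2 −1.05), Cacna2d2 (−0.86), Cacna2d3 (−0.89), and Scn8a (−0.56) also had both CKO libraries below both controls. Their adjusted p-values ranged from 0.402 to 0.479. Kcnq3 (log2 0.19, SE 0.21) was the listed gene with a value above 0, and Kcnd2 (−0.14), Kcna2 (−0.17) and Kcnc1 (−0.15) lay close to 0.

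The CKO cells of this class were deeper, as given above, and more of them reached the cycling minimum, which was not corrected for depth. Several marker lists did not overlap between the genotypes. Lower in CKO were the excitatory nuclei list (686 and 1150 raw CPM in the controls, 682 and 629 in CKO; 8 of 8 genes detected), the unipolar brush list (106 and 128 against 88.0 and 80.3; 6 of 6), the oligodendrocyte list (30.7 and 42.6 against 19.4 and 23.3; 4 of 5) and the GABAergic list given above. The granule lineage list was lower too (3593 and 3637 against 3197 and 3555; 9 of 9), but overlapped without Pax6, and its genes Atoh1 (146 and 73.5 against 197 and 159) and Barhl1 (424 and 299 against 527 and 486) were higher in CKO. The part of these lists in the result was not tested. Within non-cycling and within cycling cells the members' median was −0.39 over 76 tested and −0.42 over 80, with 0 called in either (beside 0.0490% and 0.00766% of all genes). Thinned to 2000 UMIs per cell it was −0.52 over 59, and in intact cells (4000 UMIs or more, of which 5% or less mitochondrial) −0.25 over 83. Without control replicate 2 it was −0.29. Cacna2d1 was called without control replicate 1 (log2 −1.75), and 2 members, both lower, without CKO replicate 2 (beside 0.865% of all genes).

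**Figure D5:**
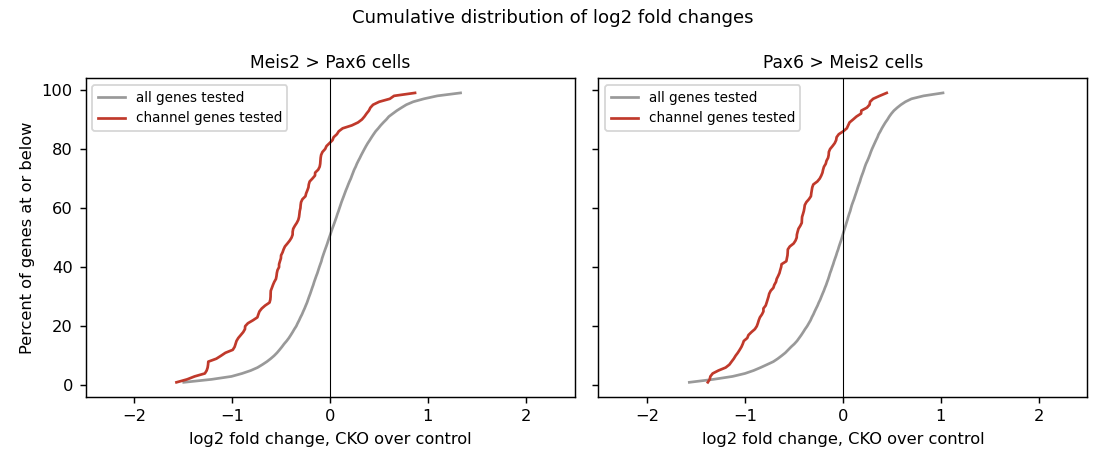
Cumulative percent of genes against log2 fold change, CKO over control, for all genes tested (grey) and the channel genes tested (red) in Meis2 > Pax6 cells (left, 76 members) and Pax6 > Meis2 cells (right, 89 members). The red curve reaches its midpoint at the members' medians of −0.39 and −0.47, left of that of the grey curve at −0.01 in both panels.

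Whether the effect of the knockout differed between the classes was tested as an interaction. None of 86 members was called, beside 0.114% of 13146 genes, 8 had an unadjusted p under 0.05, beside 5.64%, and DESeq2 called 1, Cacna2d1, beside 0.0991% of the genes to which it gave an adjusted p. For Cacna2d1 the CKO effect was more positive in Meis2 > Pax6 than in Pax6 > Meis2 cells by 1.22 on the log2 scale (SE 0.26, adjusted p = 0.136). It was called without control replicate 1 (1.59), control replicate 2 (0.87) or CKO replicate 1 (1.47), with cells thinned (1.54) and against the non-cycling Pax6 > Meis2 cells (1.22), but not without CKO replicate 2 (0.98), and it stood at 0.38 in intact cells. For Scn2a the difference was −0.29 (SE 0.44) and for Scn3a −0.17 (SE 0.26), each smaller than its error. The other listed genes tested had adjusted p-values of 0.804 or more. No partner gene was called for the knockout itself among 34 tested in Meis2 > Pax6 cells and 33 in Pax6 > Meis2 cells, beside 0.212% and 0.0574% of all genes. An unadjusted edgeR p under 0.05 was reached by 6 and 8 of them, beside 14.7% and 9.82% of all genes. Of 35 tested for the interaction 1 was called, beside 0.114% of all genes: the cell adhesion gene Nrcam (log2 1.13, SE 0.18, adjusted p = 0.0275).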

How the data were processed

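Single-cell libraries of 2 control and 2 En1/2 CKO experiments were used as deposited by the authors: UMI counts per gene and cell from Cell Ranger 5.0.0 on mm10, per the file headers and the submitters' processing notes. Kept cells had 500 genes and 1000 UMIs or more and no more than 10% mitochondrial UMIs, with no doublets removed. Counts were summed per library and class and tested with edgeR 4.0.16 (quasi-likelihood, TMM, filterByExpr, Benjamini-Hochberg over all genes), with the library as block between classes and between cycling states; an SE was taken as the estimate divided by the square root of its F statistic. Each of the 5 comparisons was refitted with DESeq2 1.42.0 and under the other settings of the closing section, and the scripts were tested on simulated data. Coordinates came from GENCODE M21 (GRCm38) and promoters from RefSeq.

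Named genes were, between classes and cycling states, up to 12 called members per direction with the largest change and at least 5 CPM in the higher group; called members in the knockout comparisons; and 21 listed genes in every comparison. A few genes that entered the counts are not reported here by name. Partner genes were named where called. Members and lists were chosen with earlier results of these data known. The libraries are replicate experiments on pooled animals, so p-values of the knockout within a class measure the spread between 2 pools per group. Those between classes and between cycling states measure the spread of the within-library difference over all 4 libraries. The interaction compares such within-library differences between the 2 groups. Total depth was 14998150 to 33709450 UMIs per library.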

Additional observations from a re-analysis of the deposited data

Results flagged for a closer look

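The effect of the knockout on Nrcam, a cell adhesion protein that sits with ankyrins and sodium channels at the axon membrane, differed between the classes by a test of the difference itself. The interaction was 1.13 on the log2 scale (SE 0.18, adjusted p = 0.0275, edgeR), with a CKO effect of 0.53 in Meis2 > Pax6 cells and −0.58 in Pax6 > Meis2 cells, neither of which was called. It lost its call without CKO replicate 1 (1.09, adjusted p = 0.242), without CKO replicate 2 (1.19, adjusted p = 0.0978) and in intact cells (0.69, adjusted p = 0.0741). DESeq2 gave an adjusted p of 0.00295.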

How the results depend on the processing

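Among members, direction was checked gene by gene only for those named by size of change and for the listed genes. Of these, the called members differed between classes and between cycling states in the same direction under every alternative run that tested them. The direction of the other called members was not checked. Counts of called members moved by over 1.5 times only in intact cells and with no library block. They were 38 between classes in intact cells, where 52 could be tested, and 31 between cycling states with no library block. Of the Meis2 > Pax6 sums, 3 of the 4 held 372 to 603 cells, and what that depth does to the knockout calls was not tested. Leaving out a library there leaves a lone one assumed to vary like the other group. None of the knockout genes below was called by edgeR, and the cause of each change was not tested.

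In Meis2 > Pax6 cells 1 member was called for the knockout by DESeq2, 8 with no low-count filter, 1 with a class margin of 2 UMIs and 0 to 13 without a library. In Pax6 > Meis2 cells the counts were 2, 5 with no filter, and 0 to 2 without a library. For the interaction they were 1 by DESeq2, 1 with no filter, 1 with thinned cells, 1 against non-cycling cells (added after seeing the data) and 0 to 3 without a library. With the replicate number as a block, 0 members were called in either class. Deviations of same-numbered libraries correlated at −0.21 and −0.16 over genes, and the libraries were treated as unpaired. With 2 libraries per group this correlation cannot settle whether same-numbered libraries were handled together. A crossed pairing added after seeing the data gave 10 and 5 calls.

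Values of the opposite sign (log2) were, for the knockout in Meis2 > Pax6 cells, Cacna1c 0.038, Cacna1e 0.69, Cacna2d1 0.31, Kcnma1 0.36 and Kcnq3 0.15 with thinned cells, Cacng2 0.061 in intact cells, and Kcnc1 −0.060 and Kcnq3 0.072 with the class margin. In Pax6 > Meis2 cells they were Kcnq3 −0.077 with thinned cells, Kcnc1 0.15, Kcnd2 0.0096, Kcnj3 0.080 and Scn3a 0.0038 in intact cells, Kcnc1 0.15 and Kcnd2 0.031 in cycling cells, and Hcn2 0.070 and Kcnd2 0.067 in non-cycling cells. Between classes they were Cacng2 0.035 (thinned), Scn8a 0.13 (intact) and Nfasc −0.050 (non-cycling). The interaction of Scn2a 0.10 (thinned) also changed sign, as did, between cycling states, Kcnq3 −0.10 (thinned).

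Leaving out 1 library at a time moved these across 0 for the knockout in Meis2 > Pax6 cells: Cacna1e from −0.87 to 0.34, Cacna2d1 from −0.18 to 0.0086, Cacna2d2 from −1.29 to 0.11, Kcna2 from −0.10 to 0.45, Kcnc1 from −0.15 to 0.24, Kcnd2 from −0.55 to 0.39, Kcnma1 from −0.61 to 0.16, Kcnq3 from −0.32 to 0.25 and Scn8a from −0.33 to 0.043. In Pax6 > Meis2 cells these were Cacnb4 from −1.49 to 0.0024, Hcn2 from −0.49 to 0.12, Kcnc1 from −0.24 to 0.012, Kcnd2 from −0.48 to 0.13 and Scn3a from −0.76 to 0.13. Between classes Scn8a from −0.17 to 0.063 did so, and for the interaction Scn2a from −0.98 to 0.72 and Scn3a from −0.61 to 0.31.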
